A study of Mus musculus with 2 samples.

Results

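The 7SK small nuclear RNA (Rn7sk) and 8 protein-coding genes of its regulatory circuit, Hexim1, Larp7, Mepce, Cdk9, Ccnt1, Ccnt2, Brd2 and Aff4, were described in nucleoplasmic RNA of mouse macrophages. The 9 genes were chosen by symbol, for their roles in transcription elongation, out of 55536 genes in the deposited tables. Each symbol matched 1 gene identifier.

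All 9 genes were read in the same 2 libraries of 1 group. Both came from bone-marrow-derived macrophages of strain C57BL/6J, carrying no labelled allele, that had received lipid A, the TLR4-binding part of lipopolysaccharide, at 100 ng/ml for 20 min. The labels call the fraction nucleoplasmic in one field and nuclear in another, give the same donor identifier to both libraries, and record neither age nor sex. The labelled starting amount was 1 ug for replicate 1 and 500 ng for replicate 2, so a difference between libraries cannot be told apart from one of input, and no unstimulated cells were in the group. Nothing in the labels says that the cultures were separate, and the spread between the libraries may be technical.

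P-TEFb is the kinase CDK9 bound to cyclin T1 or cyclin T2, and it phosphorylates RNA polymerase II, NELF and DSIF so that paused polymerase moves into productive elongation. 7SK RNA is made by RNA polymerase III and folds into a scaffold on which HEXIM proteins hold P-TEFb inactive, while MEPCE caps the 5′ end of the RNA and LARP7 binds its 3′ end. BET proteins and the super elongation complex, of which AFF4 is the scaffold, bring active P-TEFb to genes, and macrophages stimulated through TLR4 are a well-studied setting of this release.

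The 7SK transcript that the counts were assigned to has 331 bases. Its first 100 bases are shown because they hold the hairpin that HEXIM proteins bind, and capitals mark GATC (GAUC in the RNA), the motif they are known to recognise there.

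Rn7sk, bases 1 to 100: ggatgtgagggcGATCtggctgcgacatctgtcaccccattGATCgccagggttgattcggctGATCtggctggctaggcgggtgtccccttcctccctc

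GATC, which reads the same on both strands, starts at bases 13, 42 and 64, counted from 1 at the 5′ end. Of 4689 annotated transcripts of 300 to 360 bases, 9.15% hold 3 or more. The first base is the G that MEPCE caps. The gene lies on the minus strand at chr9:78175303-78175633 of mm10 and has 1 transcript and no intron.

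Mouse genomes carry many copies of 7SK, and 72.8% of the 301 words of 31 bases in Rn7sk also occur in other annotated transcripts. The 25 transcripts that share such a word are all of the class misc_RNA. The copy with the most shared words is Gm24447, of 338 bases at chr15:93234363-93234700. Its 3′ part is shown beside that of Rn7sk because the RNAs can be told apart there, and capitals mark the bases past the part that is identical in both.

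Rn7sk, bases 202 to 331: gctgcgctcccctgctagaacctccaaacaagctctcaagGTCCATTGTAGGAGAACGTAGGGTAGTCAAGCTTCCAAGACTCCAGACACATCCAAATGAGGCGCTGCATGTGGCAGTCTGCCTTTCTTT

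Gm24447, bases 202 to 338: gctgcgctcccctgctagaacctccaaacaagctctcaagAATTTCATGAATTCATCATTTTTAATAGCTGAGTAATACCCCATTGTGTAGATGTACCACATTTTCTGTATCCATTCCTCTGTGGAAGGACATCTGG

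The first 241 bases of the 2 transcripts are identical, all 3 GATC included, and the last 97 bases of Gm24447 hold no shared word. The 3′ end of Rn7sk is a T-rich stretch (U in the RNA) of the kind that LARP7 binds. Bases 216 to 327 of 7SK are spanned by 82 words in a row that occur in no other annotated transcript. In the first quantification, whose columns are named as RSEM names them, the 25 copies together took 78.3 counts in replicate 1 and 20.95 in replicate 2, and 18 of them took none in either library. That is 0.0256 and 0.00387 counts on copies for every 100 counts on Rn7sk. The second quantification, with columns named as kallisto names them, put 779 and 945 counts on copies, or 0.224 and 0.142 for every 100. Reads from the shared stretches cannot be assigned with certainty, so the Rn7sk count is uncertain by an amount these tables do not give.

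Rn7sk was the gene of highest TPM (transcripts per 1e6, a level per length) among all 55536 genes in both libraries. Its level was 126111 TPM in replicate 1 and 170383 in replicate 2 (mean 148247 ± 31305, SD, n = 2). It took 305333 and 540966 expected counts, the read counts that a quantifier estimates. That was 1.68% (exact Clopper-Pearson 95% interval 1.67 to 1.68) of all gene counts in replicate 1 and 2.90% (2.89 to 2.91) in replicate 2, while its share of TPM was 12.61% and 17.04%. The 2 shares differ because TPM divides by effective length, which was 127.46 bases in replicate 1 and 137.18 in replicate 2 for the 331-base transcript. The labels give a library size range of 250 to 400, so a level per length for so short an RNA rests strongly on that estimate.

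The second quantification gave Rn7sk 42138 and 94039 TPM, and 1.36% and 2.24% of counts. Its TPM was 2.99 times lower than in the first quantification in replicate 1 and 1.81 times lower in replicate 2. Both tables ranked Rn7sk first of the 9 genes and put replicate 2 above replicate 1. Rn7sk was 521 and 1441 times the level of Brd2, the next of the 9 genes, in the first quantification and 358 and 696 times in the second.

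Other abundant noncoding RNAs were read beside Rn7sk. Rpph1, the RNA of RNase P, was at 29483 and 42770 TPM. The ratio of Rn7sk to Rpph1 was 4.28 and 3.98, close to each other in the 2 libraries. The ratio of Rn7sk to Malat1, a long polymerase II transcript of the nucleus, was 5.80 and 5.54 in TPM but 0.173 and 0.285 in counts. Neat1, the scaffold of paraspeckles, was at 2357 and 1295 TPM. The Y RNA genes Rny1 and Rny3 took no counts in the first quantification, where the limit that a count of 0 allows is 3 counts. That limit covers counting error only, and whether the first quantification could count these RNAs was not tested. The second quantification gave Rny1 5.31 and 6.05 TPM and Rny3 7.12 and 14.6 TPM. The 3 genes nearest to Rn7sk in mean TPM, on the log2 scale, were Rmrp (55226 and 37966 TPM) and Rn7s1 and Rn7s2, which encode the RNA of the signal recognition particle. All 3 had lower TPM in replicate 2 in the first quantification, unlike Rn7sk and Rpph1. Rn7s1 and Rn7s2 carried identical values, 52948 and 19827 TPM each, so their reads could not be told apart.

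**Figure D1:**
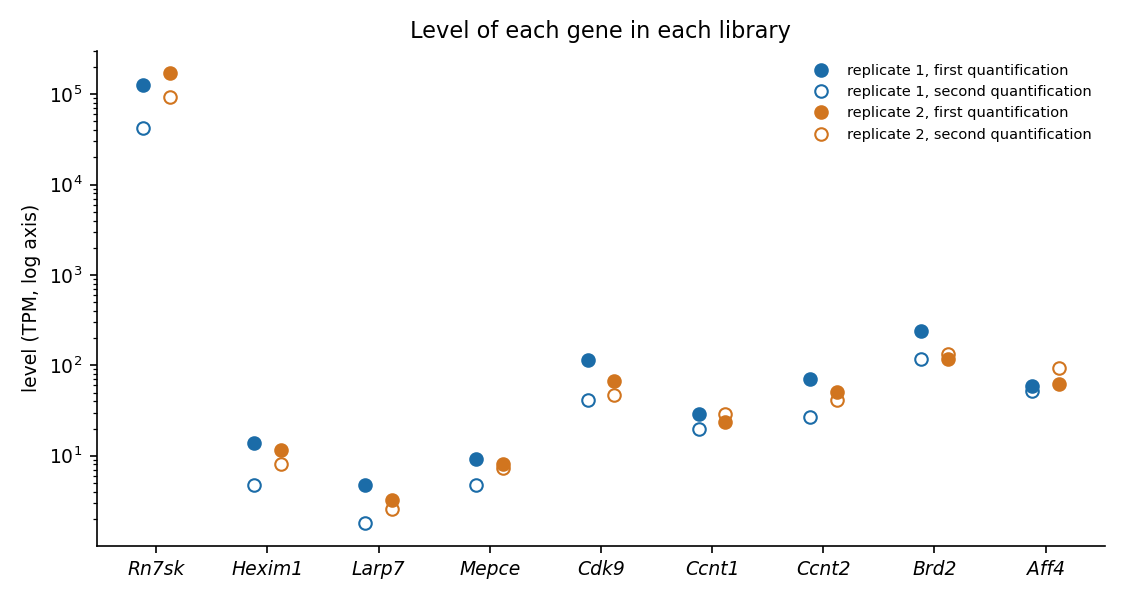
Level of each of the 9 genes on a log axis in TPM, with filled points for the first quantification and open points for the second, blue for replicate 1 and orange for replicate 2. Rn7sk sits at 42138 TPM or more in all 4 readings, while the 8 protein-coding genes lie between 1.79 and 242 TPM.

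All 8 protein-coding genes were at 1 TPM or more in both libraries, a level that 44.9% of 22015 protein-coding genes of the nuclear genome reached. Their order in mean TPM of the first quantification was Brd2, Cdk9, Aff4, Ccnt2, Ccnt1, Hexim1, Mepce and Larp7. Aff4 and Ccnt2 were the only neighbours whose values overlapped between the libraries, and they changed places from one library to the other. In the second quantification Aff4 stood above Cdk9 in both libraries.

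Hexim1, whose protein inhibits CDK9 on the 7SK scaffold, was at 13.7 TPM in replicate 1 and 11.6 in replicate 2 (12.7 ± 1.47, SD, n = 2), from 856 and 888 counts. It lies at chr11:103116231-103119725 on the plus strand and has 1 transcript of 3495 bases with no intron. Its paralog Hexim2 took 34 and 21 counts, 1.56 and 1.41 TPM. Hexim1 was 8.79 and 8.25 times the level of Hexim2 in the first quantification but 0.808 and 1.70 times in the second. The order of these 2 genes thus depended on the quantification in replicate 1. In replicate 2 both quantifications put Hexim1 higher.

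Mepce, the gene of the capping enzyme, stood just below Hexim1, at 9.31 and 8.03 TPM (8.67 ± 0.905, SD, n = 2) from 470 and 482 counts, at chr5:137781906-137787655. The ratio of Hexim1 to Mepce was 1.47 and 1.45 in the first quantification and 0.993 and 1.11 in the second. Larp7, whose protein protects the 3′ end of 7SK, was the lowest of the 9 genes in both libraries and in both quantifications. It was at 4.71 and 3.26 TPM (3.99 ± 1.03, SD, n = 2) from only 150 and 118 counts, at chr3:127536714-127553349. With all transcripts of a gene summed, all 3 protein partners of the RNA were below 15 TPM, below every P-TEFb subunit, in both libraries. With coding transcripts only, Hexim1 was above Ccnt1 in both libraries.

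Cdk9, the catalytic subunit, was at 116 TPM in replicate 1 and 67.6 in replicate 2 (91.8 ± 34.2, SD, n = 2), from 2755 and 1967 counts, at chr2:32705784-32713076. It ranked 378 and 492 among protein-coding genes. The Rn7sk level was 1088 and 2520 times that of Cdk9 in TPM, and 1014 and 2002 times in the second quantification. RNA levels say nothing of how much protein each gene gave.

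The cyclin partners were unequal. Ccnt2 was at 70.8 and 50.6 TPM (60.7 ± 14.3, SD, n = 2) from 5395 and 4702 counts, at chr1:127774164-127808061. Ccnt1 was at 29.1 and 23.5 TPM (26.3 ± 4.02, SD, n = 2) from 2156 and 1817 counts, at chr15:98538689-98570923. Ccnt2 exceeded Ccnt1 by 2.43 and 2.16 times in the first quantification and by 1.39 and 1.45 times in the second. Both tables placed Ccnt2 above Ccnt1, and by less in the second. The ratio of Cdk9 to the 2 cyclins summed was 1.16 and 0.913 in the first quantification and 0.891 and 0.667 in the second.

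Among the genes that bring P-TEFb to chromatin, Brd2, a BET protein that reads acetylated histones, was the highest of the protein-coding members. It was at 242 TPM in replicate 1 and 118 in replicate 2 (180 ± 87.5, SD, n = 2), from 7551 and 4134 counts, at chr17:34112023-34122634. It was 29.8 and 15.7 times the level of its paralog Brd3 in the first quantification and 18.5 and 14.4 times in the second. Aff4 was at 59.8 and 62.1 TPM (61.0 ± 1.63, SD, n = 2), from 5693 and 5283 counts, at chr11:53350833-53421830. It was 1.13 and 1.39 times the level of its paralog Aff1 in the first quantification and 1.96 and 2.11 times in the second. Coding transcripts of Aff4 went from 36.7 TPM in replicate 1 to 28.8 in replicate 2 of the first quantification. The 429-base noncoding Aff4-203 went from 2.00 to 15.6 TPM there, on 0.149% and 1.59% of the gene's counts.

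The genes with the TPM pair nearest to each member over the 2 libraries were Samd1 for Hexim1, Kank3 for Mepce, Tmem120b for Larp7, Cln3 for Cdk9, Grk2 for Ccnt2, Arid5a for Ccnt1, Slfn2 for Brd2 and Cep170 for Aff4. With 2 libraries this likeness is one of level only. Slfn2, the match of Brd2, was at 234 and 121 TPM, and Cln3, the match of Cdk9, at 113 and 66.8 TPM.

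The 2 libraries were then set against each other on counts scaled to library size (TMM), as log2 of replicate 2 over replicate 1 with a 95% counting interval. None of the 9 genes was over 2-fold apart, where 8.03% of 15557 tested genes were (mean scaled count of 10 or more). The median absolute log2 ratio was 0.19 for the 9 genes, 0.31 for all genes tested and 0.21 for the 2887 protein-coding genes whose scaled counts averaged at least 1000.

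**Figure D2:**
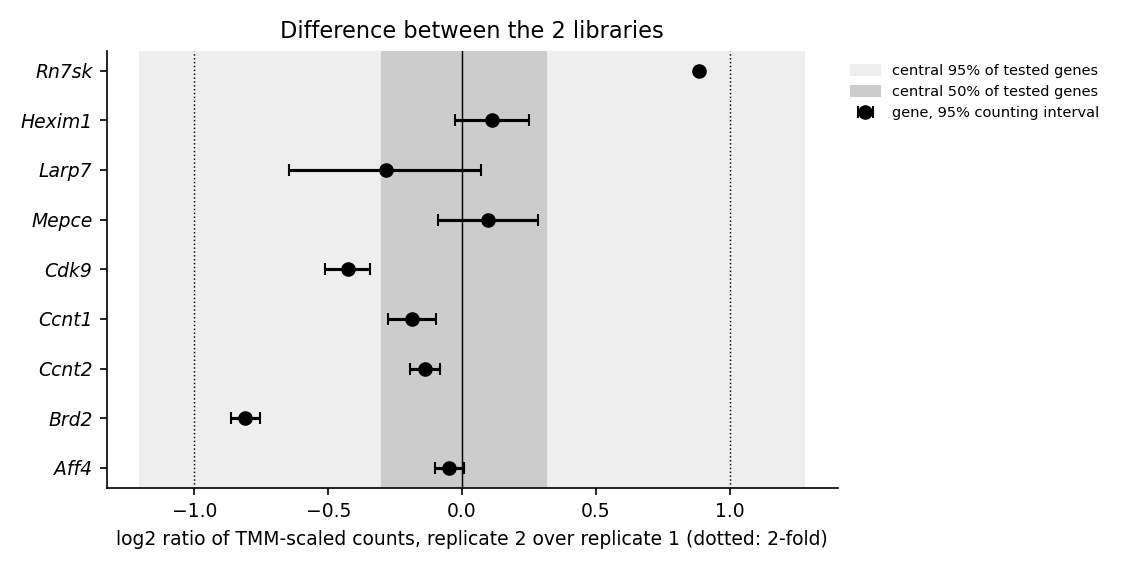
Log2 ratio of TMM-scaled counts, replicate 2 over replicate 1, for each gene (points), with bars for the 95% counting interval. The grey bands hold the central 50% (dark) and 95% (light) of 15557 tested genes, and dotted lines mark 2-fold. Rn7sk lies at 0.88 and Brd2 at -0.81, both outside the dark band and inside the light one.

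Rn7sk and Brd2 differed most and in opposite directions. The scaled count of Rn7sk was 1.85 times higher in replicate 2 (log2 ratio 0.88, interval 0.88 to 0.89), and 11.6% of tested genes lay farther from 0. The scaled count of Brd2 was 1.75 times higher in replicate 1 (log2 ratio -0.81, interval -0.86 to -0.75), and 13.9% of tested genes lay farther from 0.

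The interval lay below 0 for 4 members (Cdk9, Ccnt1, Ccnt2 and Brd2), as it did for 25.6% of tested genes, and above 0 for Rn7sk alone, as for 24.5%. Cdk9 had a log2 ratio of -0.43, Ccnt1 of -0.19 and Ccnt2 of -0.14, each lower in replicate 2. The ratios of Ccnt1 and Ccnt2 lay between percentiles 25 (-0.30) and 75 (0.31) of tested genes, and that of Cdk9 lay below percentile 25. The intervals cover counting error only, so whether the 3 P-TEFb subunits shifted together was not tested. The intervals of Hexim1 (0.11), Mepce (0.10), Larp7 (-0.29) and Aff4 (-0.05) all included 0. That of Larp7 was the widest, from -0.65 to 0.07, so its ratio was the least certain of the members at that depth.

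TPM gave another picture of the same libraries. In the first quantification 7 of the 9 genes had lower TPM in replicate 2, while in the second all 9 had higher TPM there. Over all tested genes the median log2 ratio of TPM was -0.35 in the first quantification and 0.57 in the second, so TPM moved for genes at large. By TPM of the first quantification Brd2 was over 2-fold lower in replicate 2, the only member that was, as were 9.69% of tested genes. By TPM of the second quantification Rn7sk was over 2-fold higher in replicate 2, the only member that was, as were 15.7% of 15549 genes. Relative to those medians Brd2 (-1.03 and 0.20) and Cdk9 (-0.78 and 0.18) were low in replicate 2 in both tables, and Rn7sk (0.43 and 1.16) was high. For Rn7sk in the first quantification, replicate 2 over replicate 1 was 1.77 in counts, 1.73 in the share of counts and 1.35 in TPM.

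Rn7sk also entered the TPM of the other members, since it took 12.61% and 17.04% of the total. Without it, the TPM of every other gene was 1.14 times higher in replicate 1 and 1.21 times higher in replicate 2.

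The annotated transcripts of each gene were then compared. Of 63 transcripts of the 9 genes, 9 took no counts in either library and another 9 took none in 1 library. Retained-intron transcripts, which by their annotation keep intron sequence of the gene, exist for 7 of the 9 genes. Their share of a gene's TPM had a median of 32.2% over those 7 genes (34.7% and 30.0% in the 2 libraries), beside 32.4% over 6420 genes with such transcripts. The same median was 15.5% as a share of counts, beside 19.6%, since TPM divides by length and so gives short transcripts more weight. The members' medians lay near those of all genes, and the members differed widely among themselves.

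**Figure D3:**
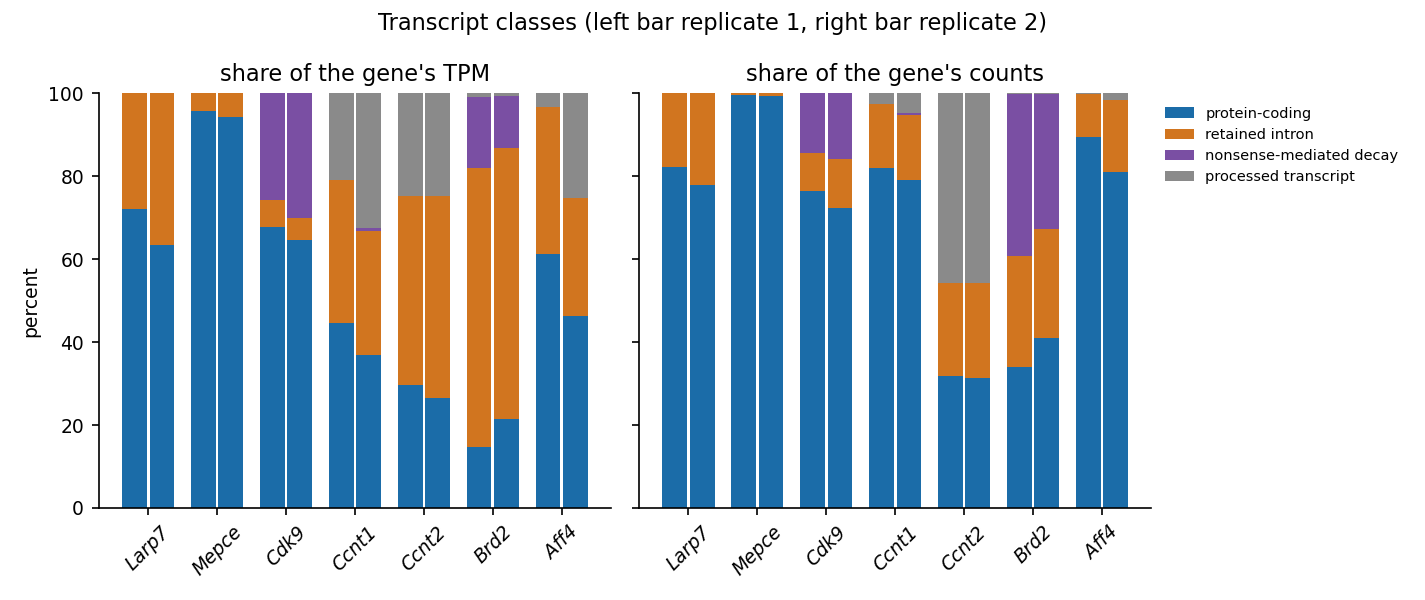
Share of each gene's TPM (left panel) and counts (right panel) on 4 annotated transcript classes, in percent, with replicate 1 as the left and replicate 2 as the right bar of a pair. Retained-intron transcripts reach 67.5% and 65.5% of TPM for Brd2, and the coding part of Ccnt2 stays below 32% in both panels.

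Brd2 stood highest. Its 7 retained-intron transcripts, of 610 to 1109 bases, took 67.5% of its TPM in replicate 1 and 65.5% in replicate 2, and 92.6% of the 6420 genes had a lower mean share. In counts they took 26.7% and 26.3%, where 60.1% of those genes had a lower mean share, and in the second quantification 75.7% and 82.8% of TPM. In replicate 1 of the second quantification Ccnt1 was level with Brd2, also at 75.7% of TPM. Protein-coding transcripts took 34.0% and 41.0% of Brd2 counts. Brd2-207, a transcript of 4520 bases annotated as a target of nonsense-mediated decay, alone took 2893 and 1327 counts, and with 38.3% and 32.1% of the gene it was the transcript with the most counts in both libraries.

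Single Brd2 transcripts moved more than their classes. Brd2-203, a coding transcript, took 929 counts in replicate 1 and none in replicate 2, while Brd2-202, another coding transcript, took 434 and 1079. The second quantification gave Brd2-203 464 and 88.7 counts. Brd2-217, a retained-intron transcript, took 0 and 167 counts in the first quantification but 620 and 1086 in the second. Assignment among these overlapping transcripts was uncertain, and class sums were the steadier reading.

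The edges of 2 Brd2 introns held in retained-intron transcripts show what is kept. Intron 8 of Brd2-201 has 172 bases at chr17:34114178-34114349 on the minus strand and is held in Brd2-205, which was at 32.7 and 9.13 TPM. Intron 12 has 147 bases at chr17:34112709-34112855 and is held in Brd2-204, at 46.9 and 16.8 TPM, and in Brd2-216. Brd2-204 also keeps intron 11, of 198 bases, whose edges are not shown. Capitals are intron bases and lower case is exon.

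Brd2 intron 8, 5′ edge: cgaaagttgcagGTGAGCTTAAGAGCTGCA

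Brd2 intron 8, 3′ edge: TCTCCCTGTCTTTTTTAGgatgtgtttgag

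Brd2 intron 12, 5′ edge: ctcccaagaaagGTATTTCAGACTGCTAAA

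Brd2 intron 12, 3′ edge: CTACCTTTAACTTTACAGcgagtgagaaga

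Both introns shown begin with GT and end with AG, as did all 12 introns found in this way in the members.

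**Figure D4:**
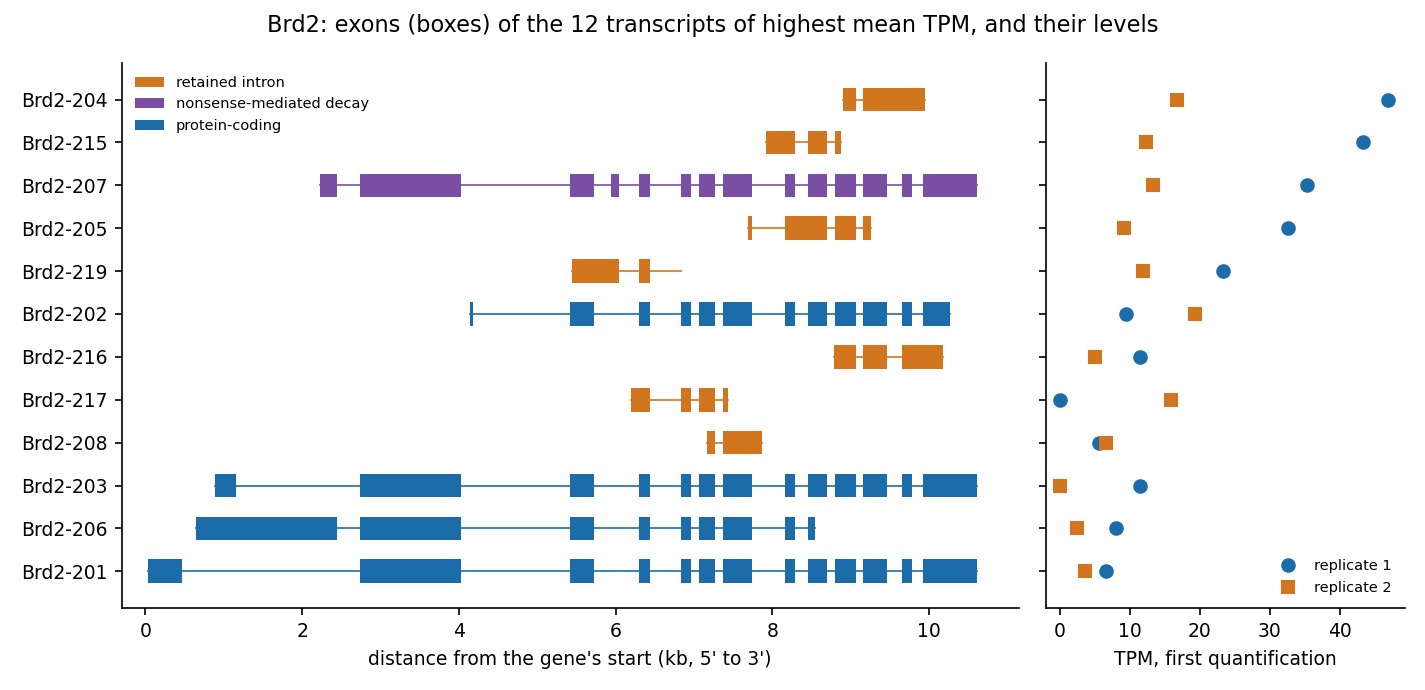
Exons (boxes) of the 12 Brd2 transcripts of highest mean TPM, drawn to scale in kb from the start of the gene (left), beside their TPM in each library (right). Brd2-204 is highest at 46.9 and 16.8 TPM, and Brd2-203 and Brd2-217 are each at 0 in 1 library.

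Ccnt2 had the smallest coding share in counts. Its protein-coding transcripts took 31.8% and 31.4% of counts, and a lower coding share was found in 7.94% of 10244 genes. The noncoding Ccnt2-207, of 7640 bases, took 45.7% in each library, from 2468 and 2150 counts, and 42.1% and 49.0% in the second quantification. Its last exon, between 27998 and 33898 bases from the start of the gene, is also the last exon of coding Ccnt2-201. Reads there do not tell these transcripts apart, so the split of Ccnt2 counts between coding and noncoding was uncertain. Ccnt2-207 keeps a 98-base intron at chr1:127803294-127803391 that Ccnt2-202 splices out as intron 9. Coding Ccnt2-201 does not splice it out and holds the same bases inside its last exon. Retained-intron transcripts took another 22.4% and 22.9% of counts. Ccnt2-204 among them, at 10.7 and 7.44 TPM, keeps introns 3 and 4 of Ccnt2-201, of 1624 and 1836 bases.

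Ccnt2-207, 5′ edge of the kept intron: ccaaaagtgcagGTAGTTCATCTAGTTCTT

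Ccnt2-207, 3′ edge of the kept intron: CCCCCTGTCACATACCAGgtgggctacgga

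The longest coding transcript, Ccnt2-201, of 6738 bases, took 0 and 381 counts in the first quantification and 0 in both libraries in the second. Ccnt2-202 took 1717 and 1093 counts.

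Ccnt1 differed from Ccnt2 in this respect. Its coding share was 82.1% and 79.2% of counts, all on Ccnt1-208 of 7397 bases with 1771 and 1439 counts. As a share of TPM the coding part of Ccnt1 was 44.5% and 36.8%, and its retained-intron share was 34.7% and 30.0% in the first quantification and 75.7% and 67.0% in the second.

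Cdk9 divided among 3 classes. Coding transcripts took 76.5% and 72.4% of its counts, retained-intron transcripts 9.12% and 11.8%, and 2 transcripts annotated as targets of nonsense-mediated decay 14.4% and 15.8%. In TPM the decay class reached 25.7% and 30.1%, and 87.6% of 3194 genes had a lower mean share. It rested on the 846-base Cdk9-208 at 27.7 and 20.1 TPM. Cdk9-201 and Cdk9-202, the 2 main coding transcripts, took 983 and 797 counts and 1120 and 620 counts, and the second quantification put Cdk9-201 higher in both libraries.

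Aff4 was carried by the 10099-base coding transcript Aff4-201, with 5048 and 4221 counts, which made 88.7% and 79.9% of the gene. Aff4-205, which keeps the 2531-base intron 3 at chr11:53373058-53375588, took 468 and 814 counts, and 812 and 1364 in the second quantification. In both tables Aff4-205 had more counts in replicate 2, while Aff4-201 had fewer. Mepce was almost wholly coding, at 99.6% and 99.4% of counts, nearly all on Mepce-201. Larp7 had 82.4% and 77.9% of counts on coding transcripts, though its retained-intron transcripts rested on about 26 counts in each library. Rn7sk and Hexim1 each have 1 transcript.

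The order of the genes changed when only protein-coding transcripts were summed, in TPM of the first quantification. Cdk9 was then the highest of the 8 genes, at 78.7 and 43.8 TPM. Aff4 (36.7 and 28.8 TPM) and Brd2 (35.5 and 25.3 TPM) followed, with values that overlapped between the libraries. Ccnt2 was at 21.01 and 13.5 TPM. Hexim1 (13.7 and 11.6 TPM) stood above Ccnt1 (13.0 and 8.64 TPM) in each library, though their values overlapped between the libraries. Mepce (8.92 and 7.57 TPM) and Larp7 (3.40 and 2.06 TPM) were the lowest in each library. The second quantification put Aff4 (25.1 and 41.2 TPM) above Cdk9 (24.9 and 28.1 TPM) in both libraries, with Brd2 at 13.9 and 14.7 TPM. Which of Cdk9 and Aff4 was highest thus depended on the quantification. In the second, Hexim1 (4.73 and 8.09 TPM) and Mepce (4.320 and 6.51 TPM) stood above Ccnt1 (4.318 and 6.28 TPM).

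Some members overlap other genes. Brd2 overlaps H2-DMa on the other strand over 3094 bases, and H2-DMa took 203 and 113 counts. Ccnt1 overlaps the antisense gene 9330020H09Rik, which took 50.8 and 118 counts. The sources used here do not state whether counting used strand, so these reads may be shared.

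The members were last set beside 43 further elongation genes in 5 lists, of which 40 were at 1 TPM or more in both libraries. Of 41 that could be compared, 1 was over 2-fold lower in replicate 2 (3.67% of tested genes) and none over 2-fold higher (4.36%). The intervals lay below 0 for 11 (25.6% of tested genes) and above 0 for 13 (24.5%). The median log2 ratio was 0.01 over these genes, beside -0.14 over the 9 members and 0.00 over all genes tested.

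All 12 genes of 7SK and P-TEFb partners were detected at that level. Hnrnpa2b1 (636 and 369 TPM) and Hnrnpa1 (67.3 and 43.6 TPM), which encode RNA-binding proteins known to take up 7SK released from P-TEFb, were among the 3 highest. Srsf2, a splicing factor known to associate with 7SK at promoters, was at 164 and 134 TPM, and Hexim2 was the lowest of the list. In the super elongation complex list 6 of 9 genes were detected, led by Aff1 (53.0 and 44.6 TPM), Ell (18.1 and 11.2 TPM) and Eaf1 (11.6 and 10.4 TPM). Aff3, a paralog of Aff4, was the lowest, with 6 counts and 1 count.

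The pausing factors, which P-TEFb phosphorylates, were all 6 detected. Supt5 of DSIF was at 29.1 and 18.9 TPM, Nelfcd at 30.6 and 8.58 and Nelfa at 11.2 and 9.61, and Supt4a was lowest at 4.94 and 4.27. Nelfcd, with 419 and 192 counts, was the gene over 2-fold lower in replicate 2. Among the PAF complex and Supt6, Paf1 (64.8 and 57.6 TPM), Cdc73 (27.0 and 23.1 TPM) and Supt6 (18.9 and 14.5 TPM) led and Leo1 was lowest (6.20 and 4.52 TPM). Of the other transcription kinases, Cdk12 (53.5 and 44.8 TPM) was highest, below Cdk9 in both libraries, with Polr2a at 36.8 and 31.7, Cdk13 at 34.84 and 25.04 and Mnat1 lowest at 6.67 and 4.98.

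**Figure D5:**
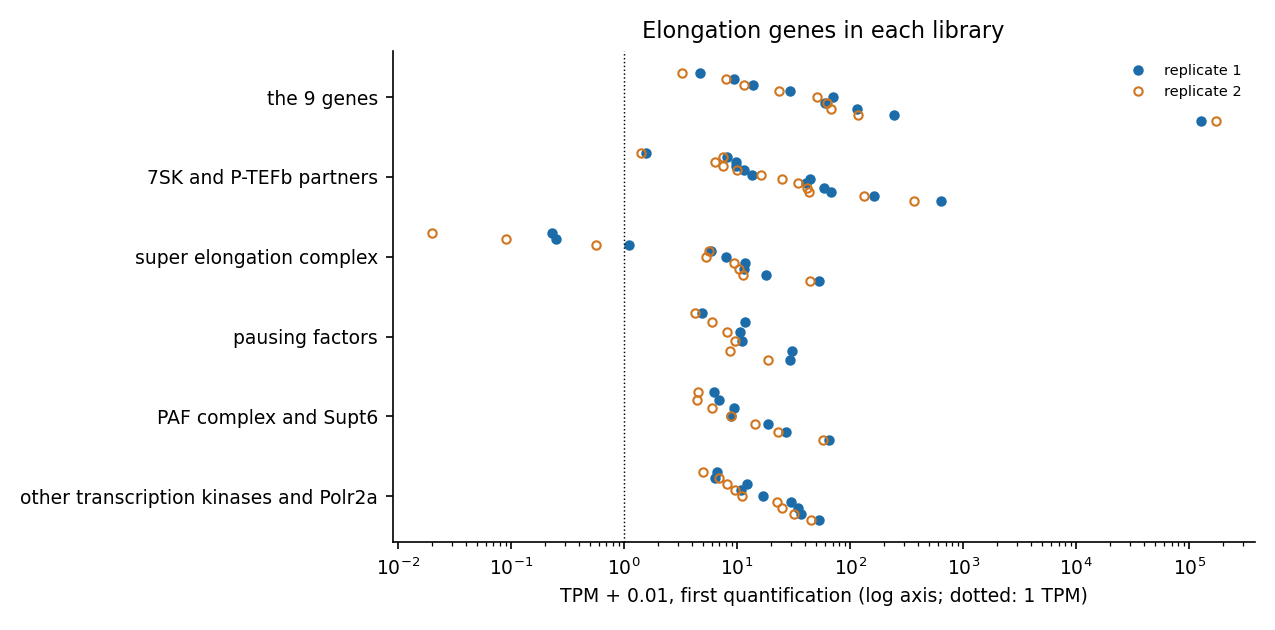
TPM of the 9 genes and of the 5 elongation lists in the first quantification, on a log axis with 0.01 added, 1 row of points per list and 1 pair of points per gene (filled, replicate 1; open, replicate 2). The dotted line marks 1 TPM, and 3 genes of the super elongation complex list fall below it in at least 1 library.

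The libraries held 18194818 and 18667509 counts on genes, and all 9 macrophage markers were at 34.1 mean TPM or more. Of 25 markers of 6 other blood or stromal cell types, 2 reached 1 TPM in both libraries (the megakaryocyte markers Pf4, 62.2 and 69.2 TPM, and Itga2b, 1.30 and 1.02 TPM), and 6 took no counts. The summed TPM of the other 5 lists was between 0.00 and 2.13 in any library. These marker counts are those of the first quantification. In the second, Pf4 and the T cell marker Cd3d (2.90 and 9.43 TPM) reached 1 TPM in both libraries, 2 markers took no counts, and the T cell list summed to 3.66 and 10.7 TPM. The part of other cells in the levels of the 9 genes was not tested. In bulk RNA, fewer cells of a type and less RNA per cell cannot be told apart.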

How the data were processed

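Ribosomal-RNA-depleted nucleoplasmic RNA was sequenced in 2 libraries of 1 group. The first of 2 deposited quantifications holds, per the file headers, expected counts with TPM, FPKM, posterior-mean TPM and bounds of a credibility interval. The second holds estimated counts and TPM per transcript, per the file headers. The upper bound, a signal in TPM deposited by the authors, entered no comparison. The accompanying notes name mm10 and GENCODE M21. Not given in the sources used here are the aligner, program versions and strand setting.

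The 9 members and all lists were chosen with earlier results of these data known. Named were all members, the 3 highest and the lowest of each list by mean TPM, markers of other cell types at 1 TPM or more, and the genes nearest in TPM. Rmrp matched 2 identifiers and was left out of its list. One item is not reported here. Of all counts, 0.823% and 0.207% lay on 26345 entries that are no mouse gene and were left out.

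Expected counts were rounded, and TMM factors came from edgeR 4.0.16 (R 4.3.3). Ratios used a prior count of 0.5 and exact binomial 95% intervals. A gene counted as apart when over 2-fold with an interval clear of 0. With 1 group there was no test. Reads carry no molecular identifiers, so counting error alone is covered by intervals and limits. The calculation of ratios was checked on simulated counts. Alternatives were library totals, size factors of DESeq2 1.42.0, ratios of TPM, no count minimum, a prior of 5, a minimum of 10 TPM, posterior-mean TPM, FPKM, full-length scaling, the second quantification and leaving out each library. Shared words and introns were found in the GENCODE M21 transcripts with Python 3.11.15.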

Additional observations from a re-analysis of the deposited data

How the results depend on the processing

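All 9 genes stayed at 1 TPM or more in the second quantification, in posterior-mean TPM, in FPKM and in each library alone, and 7 did at a minimum of 10 TPM. Of the elongation genes, 19 reached 10 TPM in both libraries, against 40 at 1 TPM. The mean share of counts on Rn7sk was 2.29%, between 1.68% and 2.90% with one library left out. No gene was over 2-fold apart under DESeq2 size factors, library totals, the second quantification's counts, no count minimum or a prior of 5, and 1 gene, Brd2, was by TPM ratio of the first quantification (log2 ratio -1.03). By TPM ratio of the second, chosen after seeing the data, 1 gene was, Rn7sk (1.16), and the log2 ratios of Cdk9 (0.18), Ccnt1 (0.55), Ccnt2 (0.62) and Brd2 (0.20) turned positive beside a median of 0.57 over tested genes. The log2 ratio of Rn7sk was positive under every alternative, from 0.43 (TPM ratio, first quantification) to 1.16, and 0.88 with the 7SK copies added, a choice made after seeing the data. The median retained-intron share, 32.2% of TPM, was 31.1% in the second quantification, 15.5% as a share of counts and 20.8% as a share of the second quantification's counts (added after seeing the data), and 30.0% and 34.7% with one library left out. Its drop as a share of counts follows from dropping the division by length. Mean levels moved by more than the SD between libraries for 7 of the 9 genes in the second quantification and for 8 with counts divided by full length, which put Hexim1 at 24.8 and Ccnt2 at 119.9 against 12.7 and 60.7 TPM. Depth limits Larp7 most, at 150 and 118 counts. No paired analysis was possible because the series has 1 group.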
